A study of Mus musculus with 127 samples.

Results

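Cytosolic and nuclear RNA of the adult mouse cortex were compared in wild-type (WT) animals. The libraries were chosen by their labels: WT genotype in the germline Chd8 line, and a cytosolic or a nuclear fraction. This gave 17 of the 127 libraries of the series, 5 cytosolic (2 female, 3 male) and 12 nuclear (5 female, 7 male). All came from the cortex of WT littermates of mice with a 5 bp deletion in 1 germline copy of Chd8, a chromatin remodeller gene, collected at about postnatal day 60. The cortex was flash frozen, separated with a synaptosome reagent, and the remainder was extracted with a second kit into nuclei and a cleaner cytosol. The labels do not say which of the resulting cytosols was sequenced. Libraries were made from polyadenylated RNA. The libraries are labelled as biological replicates, and no label ties a cytosolic library to a nuclear library of the same animal.

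Fraction went together with the experiment. The cytosolic libraries share 1 batch label and were read on an Element AVITI instrument, whereas the nuclear libraries carry 7 batch labels and were read on an Illumina NovaSeq system. Fraction, batch and instrument cannot be told apart, so a difference is reported here only where it was large, meaning at least 2-fold with an adjusted p under 0.05 (edgeR quasi-likelihood F test with sex as covariate, Benjamini-Hochberg adjustment). A second set of 4 nuclear libraries from WT mice of a conditional line (Camk2a-CRE Chd8+/+, cortex, the same age) was read on the AVITI instrument. The same 5 cytosolic libraries set against them gave a same-instrument value, given beside the main one where it matters. Another 16 libraries, 7 cytosolic and 9 nuclear, from germline Chd8+/- (HET) mice share no library with the WT comparison.

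Totals were 33.6 to 46.01 M counts in the cytosolic and 25.7 to 50.7 M in the nuclear libraries. Cytosolic WT male replicate 4 stood apart from the other cytosolic libraries in the summed level of 18 listed nuclear-retained long noncoding RNAs. It was at 15341 CPM (counts scaled to the library total), against at most 7140 CPM in the other 4 and 21350 to 34134 CPM in the nuclear libraries. The nuclear library labelled WT male replicate 7 had female markers, with Xist at 533 CPM and the Y-linked Ddx3y at 0. Without both libraries the comparison gave 3813 genes higher in cytosolic and 5837 higher in nuclear RNA, against 3241 and 5593 with them.

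A messenger RNA is made and spliced in the nucleus and exported to the cytoplasm, where free ribosomes translate messages of soluble proteins and ribosomes on the endoplasmic reticulum (ER) translate those of membrane and secreted proteins. Some long noncoding RNAs (lncRNAs) and incompletely spliced messages stay in the nucleus. Cortical tissue also holds vessels and glia beside its neurons.

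Of 20811 genes tested, 3241 (15.6%) were at least 2-fold higher in cytosolic and 5593 (26.9%) at least 2-fold higher in nuclear libraries. Without a limit of size, 15013 genes (72.1%) had an adjusted p under 0.05. Among the 11372 genes with an average of at least 3 on the log2 CPM scale the order was the other way, with 2524 higher in cytosolic and 1918 higher in nuclear RNA. Of the 4640 genes with an average under 0 on that scale, 1860 were higher in nuclear and 266 in cytosolic RNA, and 42 of the genes higher in nuclear RNA had 0 counts in all 5 cytosolic libraries. All log2 values are differences, cytosolic minus nuclear, and single-gene levels are CPM scaled by the trimmed mean of M values (TMM). Higher, or in excess, in nuclear RNA thus means relative to cytosolic RNA and not to whole cortex. The median log2 difference over all genes was -0.22, and it moved by -0.39 when libraries were scaled by their totals alone.

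**Figure D1:**
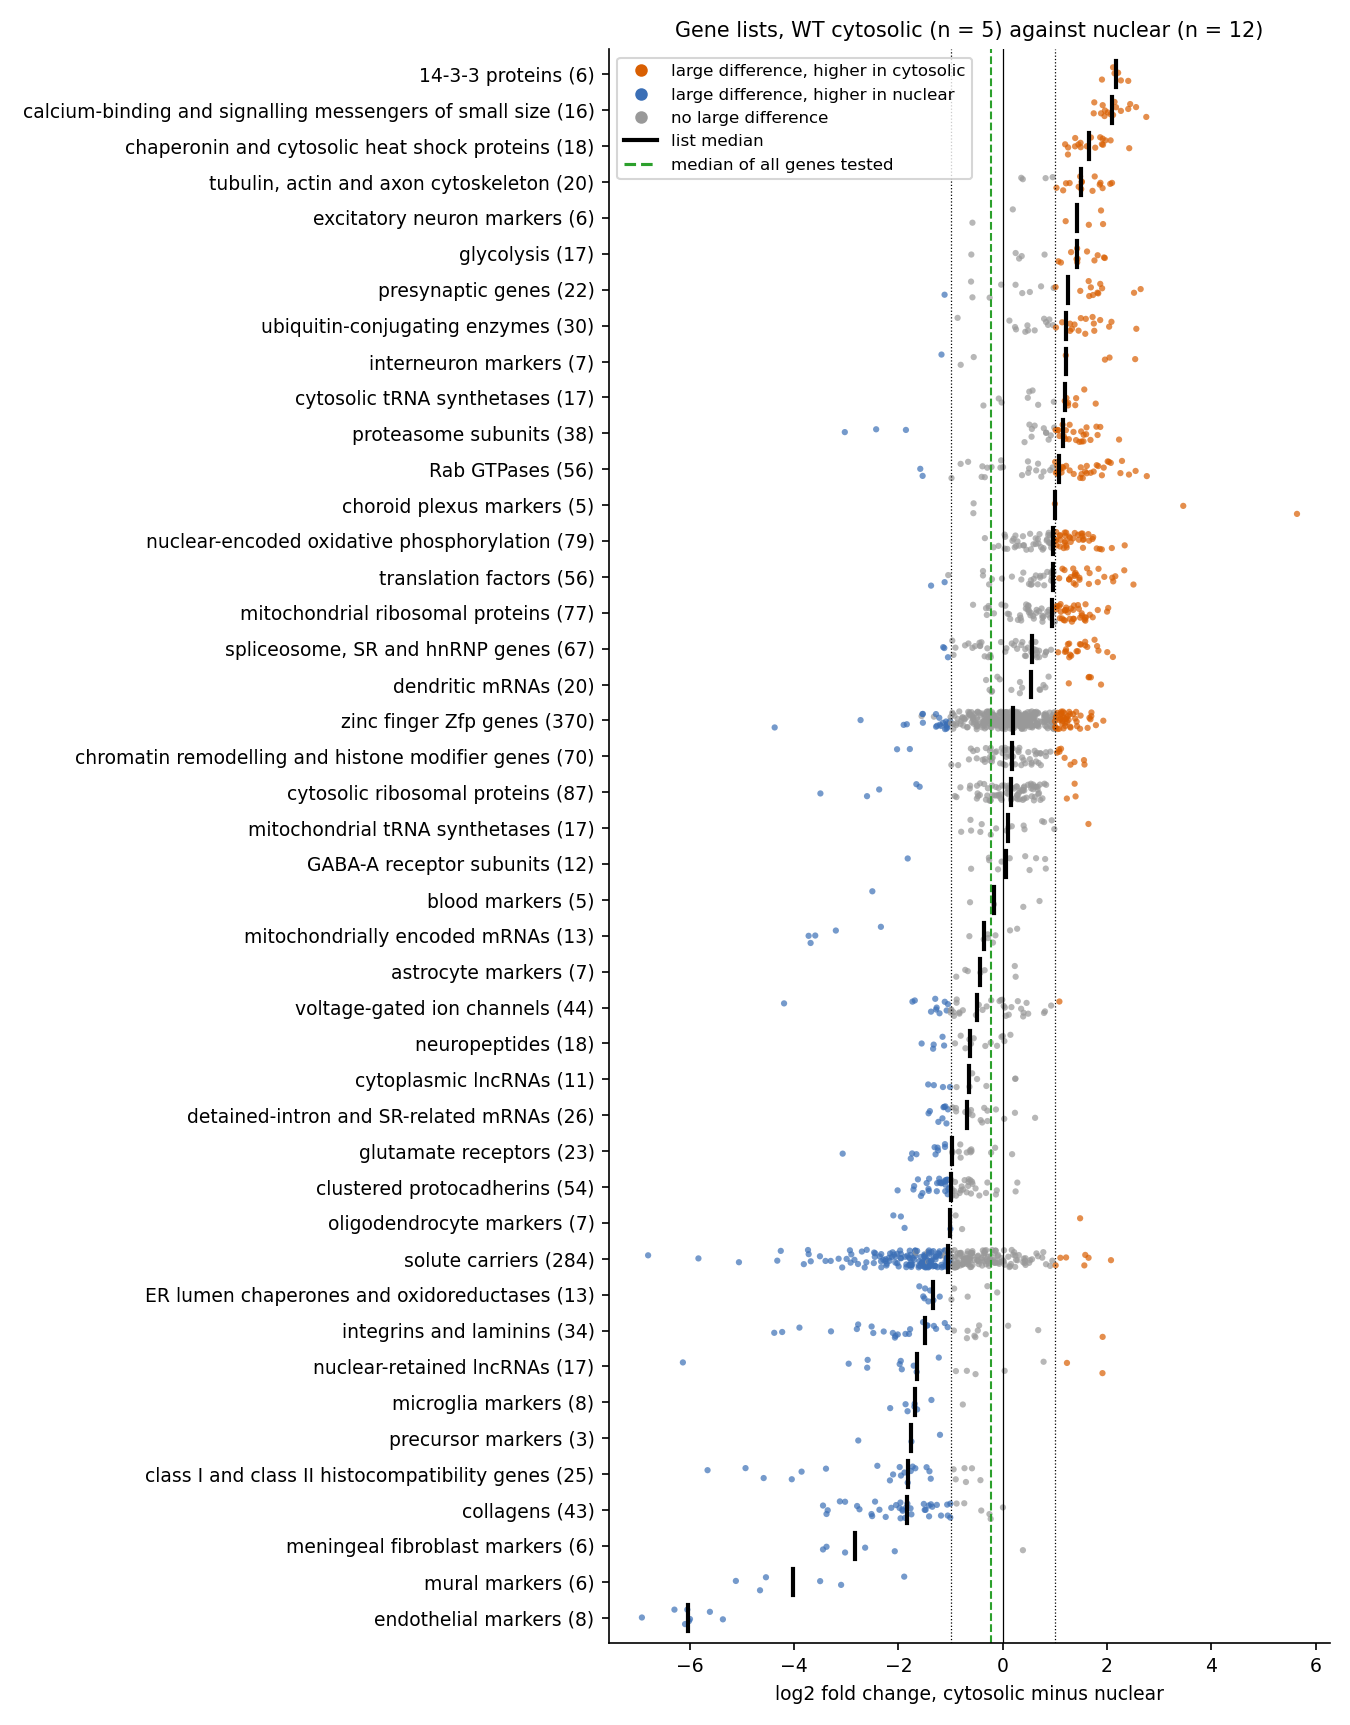
Log2 difference, cytosolic minus nuclear (x axis), of every tested member of each gene list (rows, number of members in brackets), with the list median as a black bar. Endothelial markers lie lowest with a median of -6.03, and the 6 members of the 14-3-3 family lie highest with a median of 2.18.

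The largest nuclear excess was in vascular genes. All 8 endothelial markers were higher in nuclear RNA, with a median log2 difference of -6.03 and a range from -6.92 to -5.37. Their summed level was 10.9 to 24.8 CPM in the cytosolic libraries and 798 to 2230 CPM in the nuclear ones, and 15 WT whole-cortex libraries of the same line lay between, at 170 to 355 CPM. Cldn5, which encodes the tight junction protein claudin-5 of brain endothelium (GRCm38 chromosome 16, 18776847 to 18778262, plus strand), was at 1.58, 1.28, 2.42, 1.88 and 2.47 CPM in the 5 cytosolic libraries. In the 12 nuclear libraries it ranged from 134 to 500 CPM with a median of 191. Every cytosolic value was below every nuclear one, and the libraries of the fractions did not overlap, in either direction, for 42.6% of all genes tested. The log2 difference was -6.92 ± 0.33 (SE), or 121-fold (edgeR adjusted p = 1.9e-14).

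By the rule for named genes, the 12 protein-coding genes with the largest nuclear excess were Cldn5, Slc38a5, Ly6a, Vwf, Sema3g, Tie1, Mmrn2, Tek, Emcn, Pecam1, Gkn3 and Adgrf5, with log2 differences from -6.92 to -6.08. Vwf encodes von Willebrand factor, Tek and Tie1 encode endothelial receptor tyrosine kinases, and Pecam1 encodes an endothelial adhesion molecule. None of these 12 genes exceeded 4.17 CPM in any cytosolic library. Against the same-instrument nuclear libraries the log2 differences of these genes ran from -6.39 for Ly6a to -4.98 for Gkn3. In HET mice they ran from -6.75 for Mmrn2 to -4.98 for Emcn.

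Mural cells, which wrap the vessels, and fibroblasts of the meninges showed the same side. All 6 mural markers were higher in nuclear RNA (median -4.02), among them the ATP-sensitive potassium channel subunit gene Abcc9 at -4.54 ± 0.18 (SE) and the growth factor receptor gene Pdgfrb at -3.50 ± 0.16. Of 6 meningeal fibroblast markers 5 were higher in nuclear RNA, with Col1a1 at -3.45 and Col1a2 at -3.02, whereas Igf2 was at 0.39 and not called. Of 43 collagen genes 37 were higher in nuclear and 0 in cytosolic RNA (median -1.83). Of 34 genes listed by symbol as integrins and laminins, 23 were higher in nuclear RNA. They included the integrin subunit gene Itga1 at -3.90 and the basement membrane laminin gene Lamb2 at -4.23. The 1 member higher in cytosolic RNA was Itgbl1 at 1.92, an integrin-like gene that does not encode an integrin subunit. Class I and II histocompatibility genes were higher in nuclear RNA in 19 of 25, with H2-K1 at -3.86 and H2-D1 at -3.39. Some of these H2 genes are similar in sequence, so reads may be split between them. Vascular and microglial markers moved with these groups, and their part in the result was not tested.

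**Figure D2:**
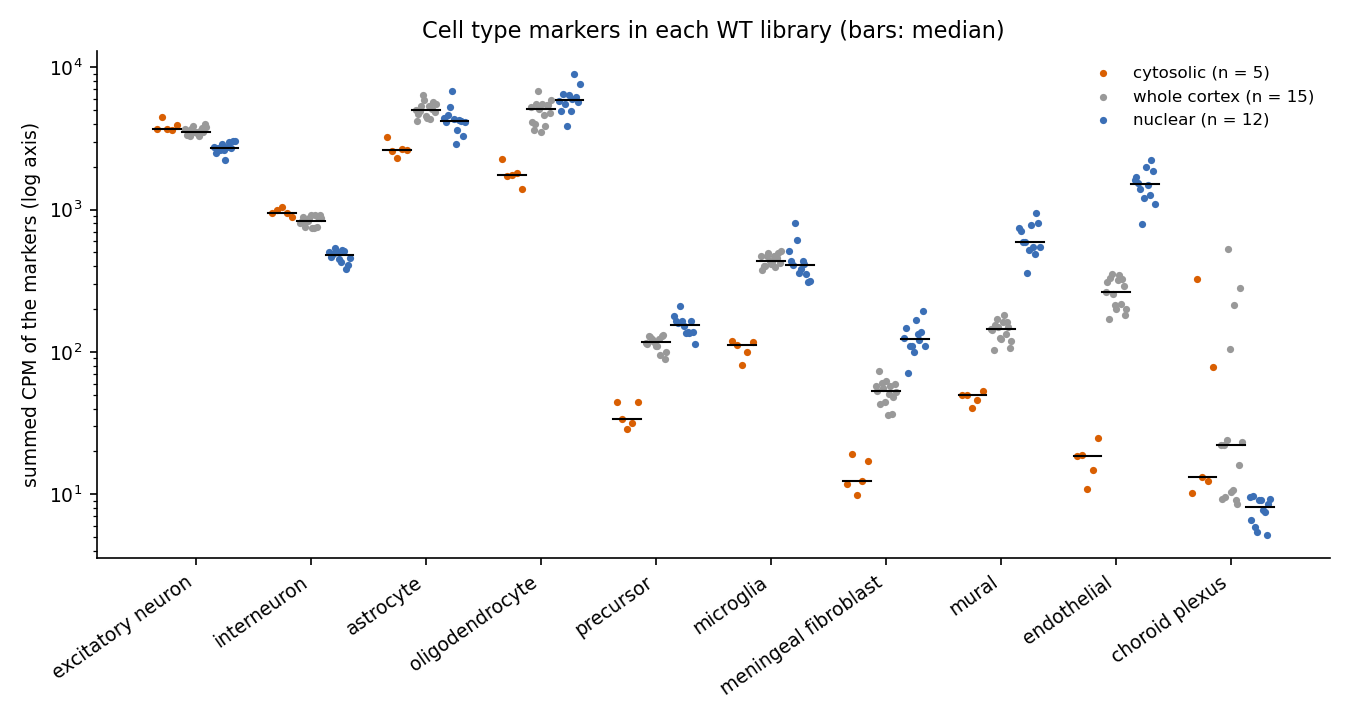
Summed CPM of the markers of each cell type (y axis, log scale) in each WT library, for 5 cytosolic, 15 whole-cortex and 12 nuclear libraries, with the median as a bar. Endothelial, mural and meningeal markers are lowest in cytosolic and highest in nuclear libraries with whole cortex between, while 2 cytosolic libraries stand high for choroid plexus markers.

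Glial markers were lower in cytosolic RNA in most types. In these bulk libraries fewer cells of a type and less RNA per cell cannot be told apart. Of 8 microglia markers 7 were higher in nuclear RNA (median -1.69), among them Csf1r, the receptor that sustains microglia, at 24.5 CPM in the median cytosolic and 104 CPM in the median nuclear library. All 3 markers of oligodendrocyte precursors were higher in nuclear RNA, with the proteoglycan gene Cspg4 at -2.77 ± 0.14 (SE) and the growth factor receptor gene Pdgfra at -1.203 ± 0.11. Astrocyte markers gave no large difference in 7 of 7, with a median of -0.43. Against the same-instrument nuclear libraries 5 of 7 were higher in nuclear RNA, with a median of -1.29.

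Oligodendrocyte genes did not share 1 direction. Mbp, which encodes myelin basic protein, was at 840, 582, 643, 711 and 504 CPM in the cytosolic libraries and at 1479 to 5021 CPM (median 2712) in the nuclear ones. No value was shared between the groups' ranges, and the difference was -2.10 ± 0.24 (SE). Mag, a myelin membrane glycoprotein gene, was at -1.95, whereas Cnp, which encodes a myelin enzyme, was higher in cytosolic RNA at 1.48 ± 0.14. In all, 4 of the 7 markers were higher in nuclear and 1 in cytosolic RNA.

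Choroid plexus genes moved with single libraries. Ttr, the transthyretin gene of that tissue, had the largest cytosolic excess of any named gene at 5.64 ± 0.68 (SE). It was at 4.93, 336.5, 6.17, 6.30 and 73.04 CPM in the cytosolic libraries, in the order female replicates 1 and 3, then male replicates 1, 2 and 4, and at 0.389 to 3.41 CPM in the nuclear ones. Without cytosolic female replicate 3 the difference was 3.95, and against the same-instrument nuclear libraries it was -1.04 and not called. Whole-cortex libraries ranged from 3.60 to 451 CPM before TMM scaling. Clic6, another choroid plexus marker, was at 3.46, and also highest in female replicate 3. Against the same-instrument libraries it was at 1.05 (edgeR adjusted p = 0.22), and 0 of the 5 choroid plexus markers were called, against 3 of 5 with the germline nuclear libraries. The part of choroid plexus tissue in these values was not tested.

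**Figure D3:**
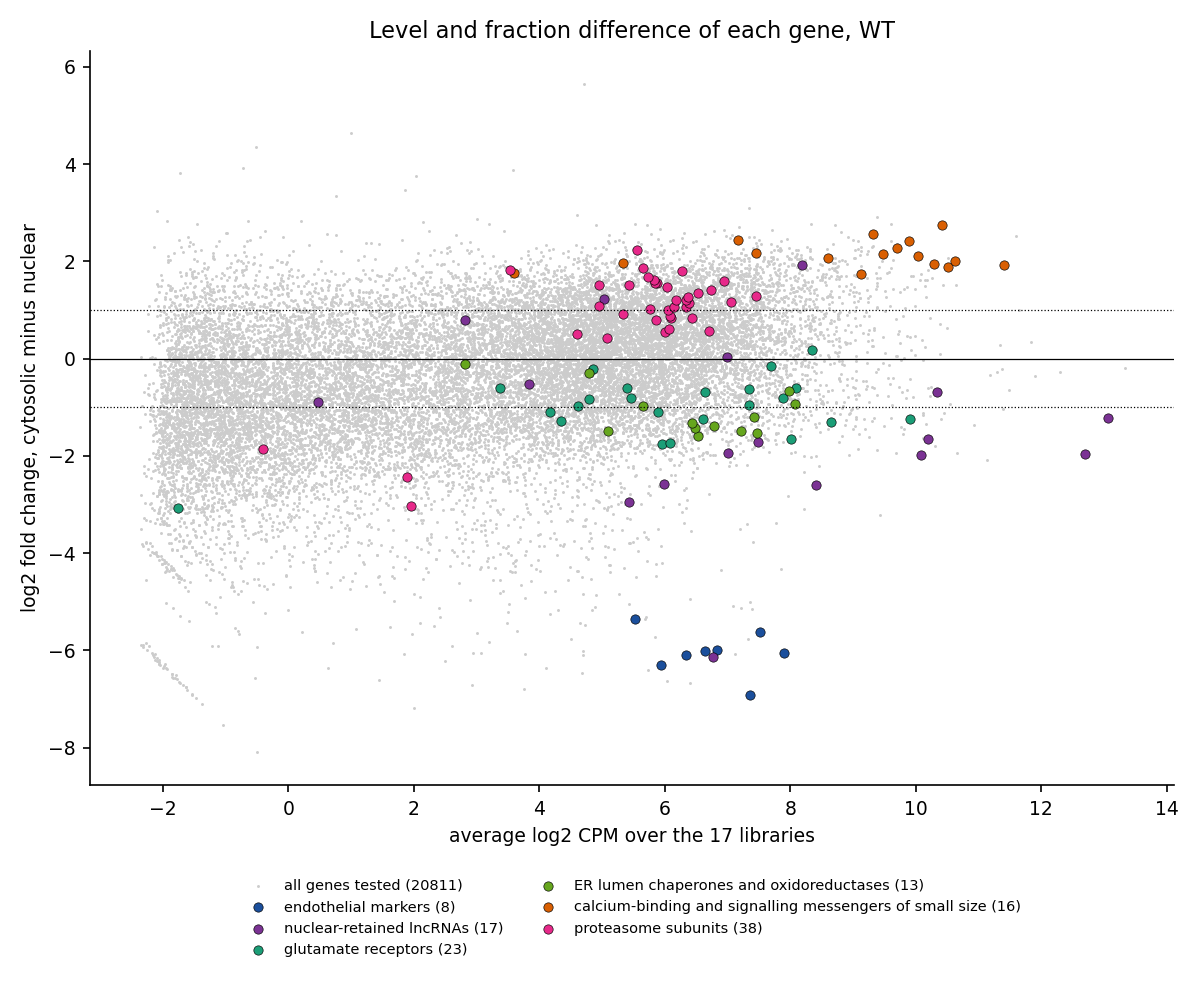
Average log2 CPM over the 17 libraries (x axis) against the log2 difference, cytosolic minus nuclear (y axis), for the 20811 genes tested, with 6 lists in colour. Endothelial markers form a group near -6 and the calcium-binding and signalling genes a group near 2 at high levels.

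Of 17 lncRNAs known for nuclear retention, 10 were higher in nuclear and 2 in cytosolic RNA, with a median of -1.65. Over all genes tested the shares were 26.9% and 15.6%, and over lincRNAs 30.8% and 11.8%. The 10 include Xist, for which the fit took the nuclear library with female markers as male. Malat1, an abundant lncRNA of nuclear speckles (chromosome 19, 5795690 to 5802672, minus strand), was at 240, 465, 185, 340 and 545.1 CPM in the cytosolic and at 973 to 2337 CPM in the nuclear libraries (median 1378). The ranges stayed apart, with a difference of -1.98 ± 0.24 (SE), which was -3.08 against the same-instrument nuclear libraries. Neat1, the scaffold of paraspeckles, was at -2.60 ± 0.23, and Kcnq1ot1, an imprinted antisense transcript, at -2.95 ± 0.25. Both were non-overlapping between fractions. Exons of 43 of the 150 genes named by rule, Kcnq1ot1 among them, overlap a gene on the other strand, and since the strand setting of the counting is not stated such values are uncertain.

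Meg3, an imprinted lncRNA abundant in neurons (chromosome 12, 109541001 to 109571726, plus strand), was at 3451, 4038, 2145, 3702 and 8592 CPM in the cytosolic libraries. The nuclear libraries held 7738 to 12627 CPM. The highest cytosolic value, of male replicate 4, reached into the nuclear range, and the other 4 did not. The difference was -1.23 ± 0.22 (SE), and -1.64 without that library. The same library was highest for Snhg11 (4867 CPM, against 950.5 to 1827 in the other 4 and 6988 to 10030 in the nuclear libraries), Ftx, Mirg, Miat and Firre. All 5 remained higher in nuclear RNA, with differences from -2.59 for Mirg to -1.65 for Miat. Without male replicate 4 the median of the list was -2.04, with the same number of members called higher in nuclear RNA. Rian (-0.69), Jpx (-0.52) and Airn (-0.90) did not reach 2-fold, and Snhg14 was at 0.04.

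Against the name of the list, Peg13 and Pantr1 were higher in cytosolic RNA. Peg13, an imprinted lncRNA (chromosome 15, 72805600 to 72810324, minus strand), was at 620, 589, 731, 642 and 442 CPM in the cytosolic and at 112 to 199 CPM in the nuclear libraries. The groups did not overlap, with a difference of 1.91 ± 0.11 (SE), 1.82 against the same-instrument libraries and 1.89 in HET mice. Pantr1 was at 1.23, but at 0.65 against the same-instrument libraries. Pvt1 was at 0.78 and did not reach 2-fold.

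Xist, the lncRNA of the inactive X chromosome, depends on sex and is described within female-labelled libraries. It was at 10.03 and 7.55 CPM in the 2 cytosolic and at 189 to 341 CPM in the 5 nuclear ones, with no overlap.

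No lncRNA listed as cytoplasmic was called higher in cytosolic RNA. Of 11 tested, mostly small nucleolar RNA host genes, 0 were higher in cytosolic and 4 in nuclear RNA, with a median of -0.64. Over all genes tested the shares were 15.6% and 26.9%. In the annotation class processed transcript, which holds most of these lncRNAs, they were 6.59% and 28.3%. With 11 members the counts do not set the list apart from these shares. The 4 were Snhg1 at -1.43, Snhg15 at -1.32, Zfas1 at -1.15 and Snhg17 at -1.01. Gas5 (-0.59), Snhg5 (-0.49), Snhg6 (-0.89), Snhg12 (-0.31), Epb41l4aos (-0.64), Snhg8 (0.24) and H19 (0.24) gave no large difference.

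Of 26 messages known to keep introns and be detained in the nucleus, 9 were higher in nuclear and 0 in cytosolic RNA (median -0.69). Over all genes tested the shares were 26.9% and 15.6%, and over protein-coding genes 21.6% and 18.6%. Among the 9 were the U1 snRNP gene Snrnp70 at -1.40 ± 0.16 (SE) and Fnbp4 at -1.16 ± 0.13. The kinase genes Clk1 and Clk4, which regulate splicing factors, were at -1.14 and -1.08. Against the same-instrument nuclear libraries 13 of the 26 were higher in nuclear RNA, with a median of -1.01, and without cytosolic male replicate 4 the count was 12.

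**Figure D4:**
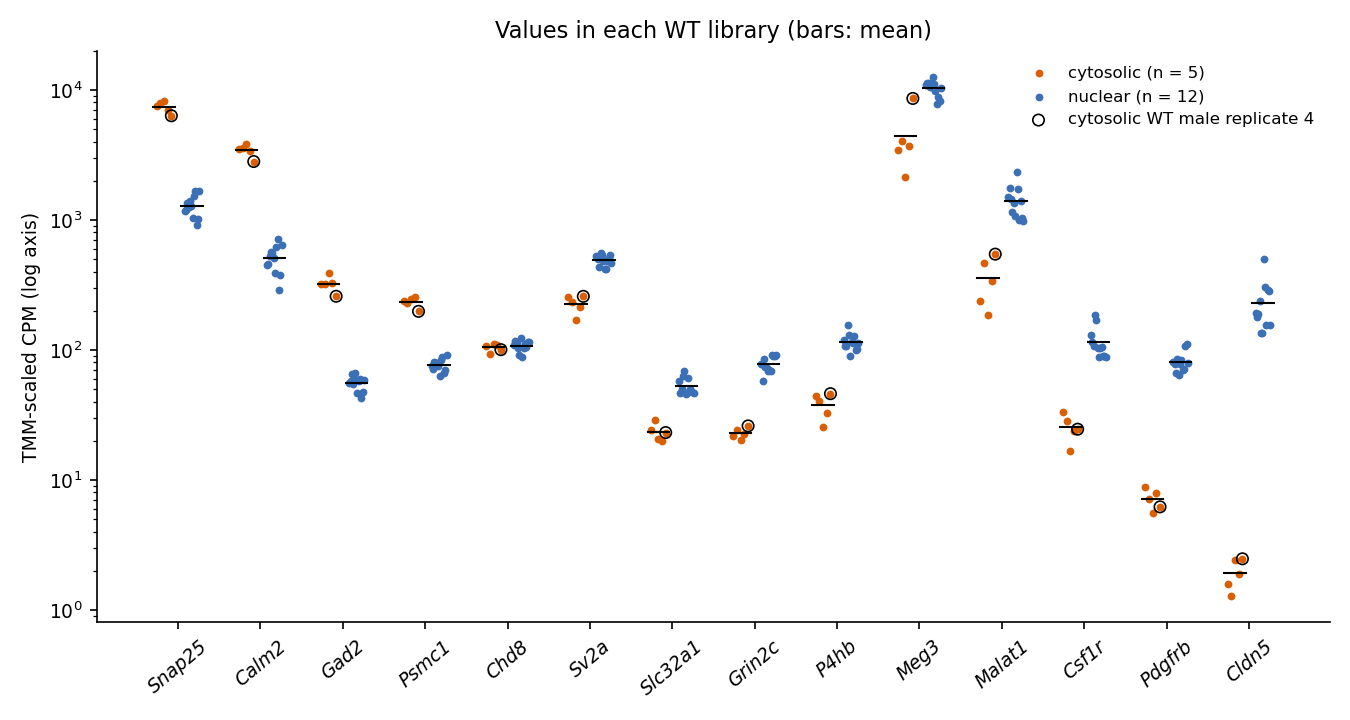
TMM-scaled CPM (y axis, log scale) of 14 genes in each of the 5 cytosolic and 12 nuclear WT libraries, with the mean as a bar and cytosolic male replicate 4 circled. Chd8 lies at 93.1 to 111 CPM in cytosolic and 87.7 to 124 CPM in nuclear libraries. Genes higher in cytosolic than nuclear RNA are on its left, and genes higher in nuclear than cytosolic RNA on its right. Before TMM scaling, WT whole-cortex medians exceeded nuclear ones for Slc32a1 (79.8 against 53.5 CPM) and Csf1r (119.8 against 111.2). They were below nuclear medians for Malat1 (380.4 against 1451.9 CPM) and Cldn5 (31.65 against 208.5).

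On the cytosolic side the highest lists held messages of soluble neuronal and signalling proteins. All 16 genes of the list of calcium-binding and small signalling proteins were higher in cytosolic RNA, with a median of 2.09 and a range from 1.75 to 2.75. Calm2, 1 of the calmodulin genes (chromosome 17, 87433412 to 87446935, minus strand), was at 3530, 3542, 3846, 3407 and 2812 CPM in the cytosolic libraries. It was at 290 to 718 CPM in the nuclear ones, with a median of 517. All cytosolic values exceeded all nuclear ones, and the difference was 2.75 ± 0.15 (SE), or 6.74-fold (edgeR adjusted p = 1.4e-13), and 1.69 against the same-instrument libraries. Calb1, which encodes calbindin, was at 2.44.

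The 6 tested genes of the 14-3-3 family of phosphoprotein-binding adaptors, 4 of them also in the list above, were all higher in cytosolic RNA, from 1.90 for Ywhaq to 2.41 for Ywhaz. Their median of 2.18 was 1.61 against the same-instrument libraries, with all 6 still called. Of 56 Rab GTPase genes, which direct vesicle traffic, 33 were higher in cytosolic and 2 in nuclear RNA, with Rab3c at 2.76 and Rab27b at 2.55. Against the same-instrument libraries 19 of 54 were higher in cytosolic and 0 in nuclear RNA.

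The 12 protein-coding genes with the largest cytosolic excess by the naming rule were Ttr, Fgf12, Lin7a, Clvs1, Camk4, Rab3c, Ppp3r1, Tnfaip8l3, Esrrg, Calm2, Mtpn and Gng2. Apart from Ttr they lay between 2.71 and 3.09. Fgf12, an intracellular regulator of sodium channels, was at 471, 441, 510, 444 and 293 CPM in the cytosolic and at 27.1 to 65.7 CPM in the nuclear libraries, an 8.51-fold difference. Ppp3r1 encodes the regulatory subunit of calcineurin, Camk4 a calmodulin-dependent kinase, and Gng2 a G protein gamma subunit. Apart from Ttr, their same-instrument differences were smaller, from 1.62 for Rab3c to 2.11 for Esrrg, and all 11 were still called.

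Genes of the presynaptic terminal split by member. Of 22, 12 were higher in cytosolic and 1 in nuclear RNA (median 1.25). Snap25, a membrane-associated protein of the fusion machinery (chromosome 2, 136713453 to 136782428, plus strand), was at 7503, 7951, 8172, 7015 and 6323 CPM in the cytosolic and at 911 to 1662 CPM in the nuclear libraries. The groups did not overlap, and the difference was 2.52 ± 0.13 (SE), or 5.73-fold. The synuclein gene Sncb (1.91), the synapsin genes Syn1 (1.69) and Syn2 (1.87), the complexin genes Cplx1 (1.65) and Cplx2 (1.66) and the vesicle GTPase gene Rab3a (1.83) were higher in cytosolic RNA.

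Of the 22 presynaptic genes 5 had a difference below 0. Sv2a, a vesicle glycoprotein gene, was at 257, 232, 169, 216 and 258 CPM in the cytosolic and at 420 to 555 CPM in the nuclear libraries, a difference of -1.11 ± 0.11 (SE). It was -0.85 against the same-instrument libraries and -0.97 in HET mice, both under 2-fold. Syp (-0.61), the glutamate transporter gene Slc17a7 (-0.58), Sv2b (-0.25) and Syt1 (-0.03), which encodes a calcium sensor of vesicle fusion, were not called. Vamp2, a vesicle protein gene of the fusion machinery, was at 1.82.

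Interneuron markers split in the same list. Gad2, which encodes an enzyme that makes GABA, was at 319, 319, 392, 330 and 258 CPM in the cytosolic libraries. It was at 42.8 to 66.6 CPM in the nuclear ones. The difference was 2.54 ± 0.10 (SE), and Gad1 was at 2.05 ± 0.10. Slc32a1, the vesicular transporter that loads the GABA they make, was at 19.9 to 28.8 CPM in the cytosolic and 45.8 to 68.3 CPM in the nuclear libraries, a difference of -1.17 ± 0.10 that was -0.70 against the same-instrument libraries. The secreted peptides Sst (-0.56) and Vip (-0.81) were not called, and the calcium buffer gene Pvalb was at 1.96. Of 6 excitatory neuron markers 4 were higher in cytosolic RNA, with Neurod6 at 1.92.

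Receptor, channel and adhesion genes of neurons were read against the 26.9% of all genes called higher in nuclear RNA. Among protein-coding genes that share was 21.6%. Of 23 glutamate receptor genes 10 were higher in nuclear and 0 in cytosolic RNA, with a median of -0.96. The NMDA receptor genes Grin1 (-1.66) and Grin2c (-1.76 ± 0.12, SE) and the AMPA receptor genes Gria2 (-1.24) and Gria3 (-1.31) were among them, while Grin2a (-0.15) and Grin2b (0.18) were not called. Grin2c was at 20.2 to 26.0 CPM in the cytosolic and 57.4 to 91.4 CPM in the nuclear libraries, with no overlap. Against the same-instrument nuclear libraries 9 of 22 tested were higher in nuclear RNA, with a median of -0.85.

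Of 44 voltage-gated channel genes 11 were higher in nuclear and 1 in cytosolic RNA (median -0.49). That nuclear share lies between the 21.6% of protein-coding genes and the 26.9% of all genes tested. Of the 11, 8 sat at log2 differences between -1.38 and -1.05, near the 2-fold limit. The other 3 were the potassium channel genes Kcnq1 (-4.19, host of the antisense Kcnq1ot1) and Kcnh4 (-1.73) and the T-type calcium channel gene Cacna1g (-1.69). Kcnh5, the member higher in cytosolic RNA at 1.09, was at 0.83 without cytosolic male replicate 1. Clustered protocadherins, surface molecules that mark single neurons, were higher in nuclear RNA in 26 of 54 (median -0.98), with Pcdhb20 at -1.57 and Pcdhb17 at -1.46. These genes are similar copies, or share exons, so reads may be split among them. GABA-A receptor subunits had a median of 0.06, which changed sign to -0.32 under library-size scaling and was -0.44 against the same-instrument libraries, and 1 of 12 was called, Gabrd at -1.82 ± 0.13. In plain CPM summed over each list, whole-cortex medians exceeded nuclear ones for protocadherins (558.7 against 373.5) and GABA-A subunits (1823.5 against 1308.7). They did not for glutamate receptors (3505.5 against 4533.9) or voltage-gated channels (6844.4 against 6930.2).

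Of 18 neuropeptide and granin genes 5 were higher in nuclear and 0 in cytosolic RNA (median -0.62). Called higher in nuclear RNA were 26.9% of all genes tested and 21.6% of protein-coding genes. With 18 members the count does not set the list apart from these shares. The granin-family genes Vgf and Chga were at -1.55 and -1.33. Summed over the list, the whole-cortex median was 1844 CPM, against 1508.5 CPM in nuclear and 621.9 CPM in cytosolic libraries. Of 13 genes for chaperones and oxidoreductases of the ER lumen 8 were higher in nuclear RNA and 0 in cytosolic RNA. P4hb, the gene of protein disulfide isomerase, was at 44.5, 40.5, 25.7, 32.9 and 46.05 CPM in the cytosolic and at 89.7 to 154 CPM in the nuclear libraries. The groups did not overlap, with a difference of -1.60 ± 0.13 (SE), -1.71 against the same-instrument libraries and -1.43 in HET mice. The list median of -1.33 was -1.70 against the same-instrument libraries, with 11 of 13 called.

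Cytosolic chaperones lay on the other side. All 18 genes of the chaperonin complex and the cytosolic heat shock proteins were higher in cytosolic RNA, from 1.197 for Cct3 to 2.43 for Hsp90aa1 (median 1.65). Dnaja1, a co-chaperone gene, was at 1.92 ± 0.09 (SE) and St13 at 2.07 ± 0.10. Against the same-instrument libraries the median was 1.01 and 10 of 18 were called.

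Solute carriers, the largest family of membrane transporters, were higher in nuclear RNA in 146 of 284 and in cytosolic RNA in 7, with a median of -1.06. Of those 7, 6 belong to the Slc25 family of mitochondrial carriers: Slc25a4 at 1.65, Slc25a5 at 1.58, Slc25a16 at 1.56, Slc25a11 at 1.21, Slc25a12 at 1.11 and Slc25a22 at 1.02. The other, Slc4a5 at 2.08, had a mean of 0.906 CPM in the cytosolic libraries and was at -0.92 against the same-instrument libraries. The nuclear side of the family includes endothelial transporters such as Slc38a5 at -6.80 and Slc19a3 at -5.06.

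Messages of the cytosolic machinery were higher in cytosolic RNA in part. Of 38 proteasome subunit genes 24 were higher in cytosolic RNA (median 1.16). Psmc1, a subunit of the regulatory cap, was at 239, 227, 246, 257 and 198 CPM in the cytosolic and at 63.3 to 91.8 CPM in the nuclear libraries, a 3.03-fold difference. All cytosolic values were above the nuclear range. The 3 members higher in nuclear RNA were the immunoproteasome genes Psmb9 (-3.03) and Psmb8 (-2.43) and the testis subunit gene Psma8 (-1.86), all weakly expressed. Of 17 glycolysis genes 12 were higher in cytosolic RNA (median 1.42), with Pgam1 at 1.82 and the neuronal enolase gene Eno2 at 1.76. Of 20 cytoskeletal genes 16 were higher in cytosolic RNA (median 1.495), with the neurofilament gene Nefm at 2.10 and the tubulin-binding Stmn1 at 2.06.

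Of 56 translation factor genes 26 were higher in cytosolic and 2 in nuclear RNA (median 0.96), with the initiation factor genes Eif1a at 2.16 and Eif5b at 2.12. Eif2ak3, an eIF2 kinase of the ER membrane, was at -1.11 ± 0.10 (SE), and the other member higher in nuclear RNA was the low-level copy Eif3j2 at -1.37. Cytosolic tRNA synthetases were higher in cytosolic RNA in 9 of 17 (median 1.19), with Nars at 1.78 and Hars at 1.56. Against the same-instrument libraries 4 of 17 were called (median 0.60), and Nars was at 0.93. Mitochondrial tRNA synthetases were called in 1 of 17, Lars2 at 1.64. That gene was at -0.85 against the same-instrument libraries, and its list median of 0.11 changed sign under library-size scaling.

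Nuclear genes for mitochondrial proteins leaned to the cytosol near the 2-fold limit. Of 79 genes of oxidative phosphorylation 38 were higher in cytosolic and 0 in nuclear RNA (median 0.96), with the cytochrome c gene Cycs at 2.34 ± 0.13 (SE) and the complex I gene Ndufb8 at 1.51 ± 0.09. Of 77 mitochondrial ribosomal protein genes 37 were higher in cytosolic and 0 in nuclear RNA (median 0.95), with Mrpl19 at 1.82 and Mrps2 at 1.35. Both counts moved to 26 and 31 against the same-instrument libraries.

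The 13 messages encoded in the mitochondrial genome had a median of -0.36. In all, 5 were higher in nuclear RNA, mt-Nd3, mt-Co2, mt-Atp6, mt-Co3 and mt-Nd4l, from -3.72 to -2.34, and the other 8 gave no large difference. mt-Co2 was at 3.87 to 5.77 CPM in the cytosolic and 14.3 to 114 CPM in the nuclear libraries. Copies of mitochondrial sequence in the nuclear genome share reads with these genes, so their values are uncertain.

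Cytosolic ribosomal protein genes lay close to the middle. Of 87, 3 were higher in cytosolic and 5 in nuclear RNA, with a median of 0.17 that became -0.21 under library-size scaling. The members called were Rpl23a (1.40), Rpl7l1 (1.38) and Rpl15 (1.23) on the cytosolic side, and Rpl32l (-3.50), Rpl6l (-2.60), Rps27rt (-2.37), Rpl24 (-1.66) and Rps10 (-1.59) on the nuclear side. Against the same-instrument libraries 0 of 86 were higher in cytosolic and 3 in nuclear RNA. There Rpl7l1 was at 0.89, Rpl15 at 0.90 and Rps27rt at -0.25. Rpl6l is itself annotated as a processed pseudogene, and averaged 0.303 CPM in the cytosolic and 1.82 CPM in the nuclear libraries. Rps27rt was also weakly expressed, at 0.575 and 2.93 CPM. Reads of these genes are shared with many processed copies. Zinc finger genes of the Zfp series (370, median 0.20) and chromatin remodelling and modifier genes (70, median 0.18) also lay near 0, and both medians became -0.19 and -0.21 under library-size scaling.

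Chd8 gave no large difference. It was at 108, 93.1, 111, 110 and 100 CPM in the cytosolic and at 87.7 to 124 CPM in the nuclear libraries, with a difference of -0.05 ± 0.09 (SE, edgeR adjusted p = 0.63). The groups overlapped. Its exons overlap 1 annotated antisense gene.

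Among genes of RNA processing, 21 of 67 spliceosome, SR and hnRNP genes were higher in cytosolic and 3 in nuclear RNA (median 0.55). Against the same-instrument libraries 11 were higher in cytosolic and 4 in nuclear RNA. Hnrnpa3 was at 1.84, but at 0.88 against those libraries, and Hnrnpab was at 1.81, whereas Prpf39 (-1.14), Prpf38b (-1.12) and Srsf2 (-1.05) were on the nuclear side. Known dendritic messages were called in 5 of 20, all higher in cytosolic RNA (median 0.54): Nrgn at 1.89, Syn1 at 1.69, Cplx2 at 1.66, Psd3 at 1.65 and Map2 at 1.27. Called higher in cytosolic RNA were 15.6% of all genes tested and 18.6% of protein-coding genes. With 20 members the count does not set the list apart from these shares. Other dendritic messages were near 0, with Camk2a at 0.33, Arc at -0.06 and Shank1 at -0.10. Immediate early genes were called in 5 of 16, all higher in cytosolic RNA, with 0 non-overlapping. Over all genes tested the fractions did not overlap for 42.6%. The 5 calls among 16 members do not set the list apart from the cytosolic shares above. Egr1 ranged from 528 to 1433 CPM in the cytosolic and from 67.8 to 833 CPM in the nuclear libraries.

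The shares of calls differed by gene class. Of 1116 processed pseudogenes 65.9% were higher in nuclear and 2.33% in cytosolic RNA (median -1.82), and of 1111 lincRNAs 30.8% and 11.8% (median -0.45). Processed pseudogenes were weakly expressed, at 490 to 605 CPM over the whole class in cytosolic and 1159 to 1966 CPM in nuclear libraries. A weak gene could pass the filter through the nuclear libraries alone, so shares of weakly expressed classes do not measure a direction. Of 1018 antisense genes 34.4% and 7.56% were higher in nuclear and cytosolic RNA, and of 15563 protein-coding genes 21.6% and 18.6% (median 0.00 with TMM scaling). Against the same-instrument libraries the shares of protein-coding genes were 18.8% and 12.95%. The median of processed pseudogenes was -0.90 against the same-instrument libraries, where 551 were tested and 34.9% were higher in nuclear RNA. Processed pseudogenes share sequence with their parent genes, so reads may be split between them, and reads of antisense genes cannot be told apart from those of their partners, since the strand setting is not given.

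Protein-coding genes higher in cytosolic RNA had shorter coding sequences, with a median of 1113 bases, against 1509 bases in those higher in nuclear RNA and 1401 bases over all tested. In quintiles of coding length, the median log2 difference was 0.37 for the shortest and -0.20 for the longest coding sequences. Against the same-instrument nuclear libraries these medians were 0.46 and -0.27. Genes higher in cytosolic RNA also had longer 3′ UTRs (median 1218 against 715 bases) and lower GC content (47.6% against 52.9%).

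The GC and 3′ UTR patterns differed between the nuclear library sets. Median log2 differences went from 0.34 in the quintile of lowest GC to -0.42 in that of highest GC, but from -0.03 to 0.04 against the AVITI nuclear libraries. For 3′ UTR length the medians went from -0.18 in the shortest to 0.30 in the longest quintile, and from 0.01 to 0.09 against the AVITI libraries. Those libraries differ in line and batch as well, and the part of each was not tested.

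**Figure D5:**
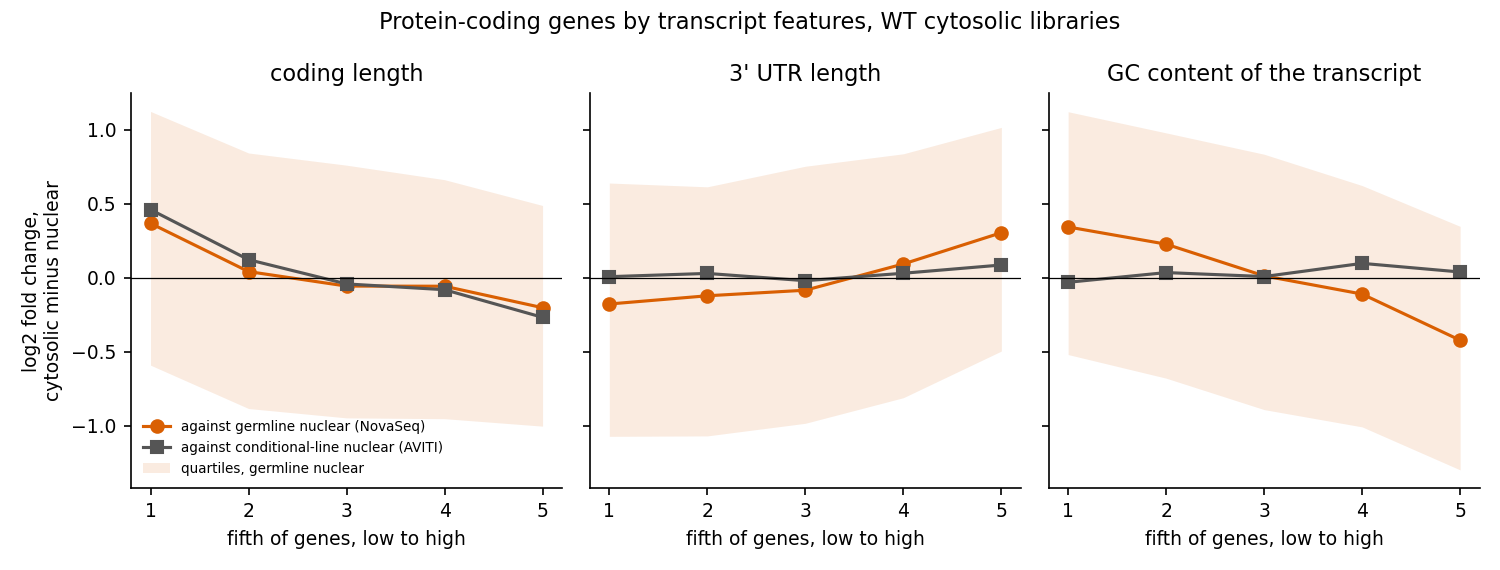
Median log2 difference, cytosolic minus nuclear (y axis), of protein-coding genes in quintiles of coding length, 3′ UTR length and GC content (x axis, low to high). Circles use the 12 germline nuclear libraries, with quartiles shaded, and squares the 4 conditional-line nuclear libraries. The slope with coding length is alike in both, whereas that with GC content is present against the germline libraries alone.

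The HET libraries, from other animals on the same split of instruments, gave the same side for most genes. Of the 3241 genes higher in cytosolic RNA in WT, 3200 were tested in HET and 2920 (91.2%) were called on the same side at 2-fold, which made up 88.4% of the 3304 HET calls in that direction. Of the 5593 genes higher in nuclear RNA, 4957 were tested and 4041 (81.5%) were called on the same side, 90.1% of the 4485 such HET calls. In both directions 0 genes were called on the opposite side. The background of calls in HET was 17.1% higher in cytosolic and 23.2% higher in nuclear RNA, 40.2% in all. In a joint fit, the fraction by genotype interaction gave 0 of 21925 genes at an adjusted p under 0.05 and 662 (3.02%) at an unadjusted p under 0.05 (edgeR).

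With the same-instrument nuclear libraries 2196 of 19234 genes (11.4%) were higher in cytosolic and 4362 (22.7%) higher in nuclear RNA, 34.1% in all. Values of the lists are given side by side, since both comparisons use the same cytosolic libraries. The endothelial median was -5.50 with 8 of 8 called, the microglia median -1.30, and the protocadherin median -1.19 with 38 of 54 called. Medians on the cytosolic side were smaller, at 1.66 for calcium-binding and signalling genes, 0.98 for proteasome subunits, 1.11 for glycolysis and 1.06 for presynaptic genes.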

How the data were processed

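The authors deposited raw counts per gene for poly(A) libraries, made with STAR 2.5.4b and featureCounts 2.0.0 on GRCm38 per the submitters' processing notes. Strand and read-pair options of the counting are not stated there. Counts from 10 to 200 were even in 60.8 to 74.3% of cases per library, so totals may hold both mates of a pair. The tables were joined on 54838 gene IDs, 54723 of which matched a symbol. Of 7 libraries labelled WT cytosolic 2 were not analysed here. Positions and gene features come from GENCODE M21. Every pair of WT libraries within a fraction differed beyond sampling noise (chi-square over its degrees of freedom at least 13.15).

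Genes passing filterByExpr entered edgeR 4.0.16's quasi-likelihood test under R 4.3.3 on the deposited counts, with TMM scaling, sex as covariate and Benjamini-Hochberg adjustment over all genes tested. p-values measure the spread between these libraries. On simulated counts for 20312 genes, 100 genes were changed by 2.0 and 100 by 1.2 on the log2 scale. Of these, 100% and 91% were called. The changed genes were well counted and balanced in direction, with the same spread set for every gene and no batch difference. These shares therefore do not apply to weakly expressed genes or to the broad shift between the real fractions. Single-gene levels are TMM-scaled CPM, and marker sums, whole-cortex values and class sums are plain CPM.

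The libraries and the 37 gene lists were chosen with earlier results of these data known. A further 9 lists (14-3-3 proteins, Rab GTPases, ubiquitin-conjugating enzymes, solute carriers, integrins and laminins, ER lumen proteins, cytosolic and mitochondrial tRNA synthetases, histocompatibility genes) were added after the values were seen. Ubiquitin-conjugating enzymes were higher in cytosolic RNA in 17 of 30 (median 1.22). Of 3 metallothioneins and of 5 blood markers 1 each was higher in nuclear RNA (Mt2 and Hba-a2). Neither was called against the same-instrument libraries, with Mt2 at -0.23 and Hba-a2 at -0.61. There 1 blood marker was higher in cytosolic and 0 in nuclear RNA. Genes were named by rule: Chd8, all members of both lncRNA lists, the 12 largest non-overlapping differences each way among protein-coding genes with an ordinary symbol that averaged 3 or more in log2 CPM, and up to 2 called members of each list each way with the smallest p. Other members named were chosen after their values were seen. Some genes are not reported here. A protein-sequence feature planned for the comparison was not used here. Alternatives were other scalings, filters, DESeq2 1.42.0, voom with limma 3.58.1, a test against a fold limit, nuclear batches, other library sets and leaving out each library. Same-numbered libraries of the 2 fractions are not tied to 1 animal by any label.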

Additional observations from a re-analysis of the deposited data

Results flagged for a closer look

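In 150 measures tested over the 5 cytosolic libraries (148 named genes, the total count and the mitochondrially encoded share), 22 had 1 library far from the others, with a gap to the nearest above 0.71 of the group's range. Chance flags about 1 in 20 such groups, and the genes are not independent. Cytosolic male replicate 4 was the library in 16 of the 22. It was high in 9: Snhg11 (4867 CPM, next 1827), Firre (130.3, next 59.7), Ftx (115.3, next 35.05), Mirg (32.5, next 12.9), Rian (1142, next 881), Snhg17 (22.9, next 15.0), Snrnp70 (568.1, next 314), Eif2ak3 (18.99, next 14.96) and Kmt5c (19.3, next 12.3). Except for Rian, which did not reach 2-fold, these 9 genes were called higher in nuclear RNA.

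The same library was low in 7 genes, all called higher in cytosolic RNA: Mrps2 (39.0 CPM, next 44.2), Ndufb8 (66.2, next 77.3), Stmn1 (784, next 907), Calb1 (262, next 343), Hnrnpab (91.2, next 115.5), Cnp (229, next 363) and Ywhab (1082, next 1281). Female replicate 3 was high for the choroid plexus genes Ttr (336.5 CPM, next 73.04) and Clic6 (27.6, next 6.96), and for Slc38a5 (0.382) and Mmrn2 (0.669), which were near 0 in all cytosolic libraries. Male replicate 1 was low for Abcb1a (1.34, next 2.24), and female replicate 1 was at 0 for Rab19.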

How the results depend on the processing

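Counts of large differences were compared over the alternatives. Testing against a 2-fold limit directly (glmTreat) gave 5647 genes, 2129 higher in cytosolic and 3518 higher in nuclear RNA, and a limit of log2 2 gave 2487, as 334 and 2153. Scaling by library totals alone gave 1604 higher in cytosolic RNA and 7724 higher in nuclear RNA, so that 17.2% of calls were on the cytosolic side against 36.7% with TMM and 26.97% with upper-quartile scaling. That scaling moved the median over all genes by -0.39, upper-quartile scaling by -0.18 and DESeq2's relative log expression within edgeR by 0.02. Leaving out each library in turn gave 3036 to 3562 genes higher in cytosolic and 5209 to 6087 higher in nuclear RNA. Without any filter, 1 gene passed in the interaction of fraction and genotype. With a replicate block the counts were 3231 and 5045. The correlation of same-numbered libraries, after centring on the mean of each fraction and sex, ran from -0.33 to 0.13. Of the 5 cytosolic libraries 1 correlated best with its own number. With 2 female and 3 male cytosolic libraries the centred values depend on each other, so these correlations cannot decide whether the numbers pair libraries. The other settings stayed within 1.5 times of both counts. Of 137 named genes called, 103 were called on the same side in every setting that tested them. Against the conditional-line nuclear libraries 24 of 148 named genes lost the call, and Ttr (-1.04) and Lars2 (-0.85) changed sign; the cause was not tested. Leaving out nuclear male replicate 7 and cytosolic male replicate 4 together, an alternative chosen after seeing the data, changed no call among the 150 named genes. Depth limits genes under 0 on the average log2 CPM scale, of which 4640 were tested.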
